A study of Mus musculus with 20 samples.

Results

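The response to bortezomib that remained in drug-resistant mouse myeloma cultures was measured on 9 of the 20 arrays of the series. The 6 arrays taken after 8, 16 and 24 h with the drug, 3 from each of the resistant cultures of the lines 589bm and 595sp, were compared with 3 early arrays, namely 589bm at 0 h, 595sp at 0 h and 595sp at 2 h. Arrays were chosen by their titles, except that the 589bm resistant array at 2 h was left out for its near-blank signal. Both lines are Bcl-XL/Myc double transgenic, on an FVBN and BL/6 crossed background, and the labels call the cells multiple myeloma derived. All 9 arrays therefore share both transgenes, and the promoter that drives them is not stated in the labels. The dose was 33 nM on every array except those at 0 h, so the 2 h array among the early ones had already received drug. Each line has 1 resistant culture with 1 array per time, and how resistance was raised is not stated. The comparison used for contrast has the sensitive cultures of the same lines, with 6 arrays at 8 to 24 h and 4 at 0 and 2 h, and the same dose.

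Bortezomib is a boronate drug that blocks the chymotrypsin-like active site of the 20S proteasome, carried by the subunit Psmb5, and it is used against multiple myeloma, a cancer of antibody-secreting plasma cells. Cells with a blocked proteasome are known to raise cytosolic chaperones through the heat shock factor Hsf1, to raise amino acid and stress genes through the transcription factor Atf4 and its relatives (the integrated stress response), and to make new proteasome subunits through Nfe2l1, a factor that escapes destruction when the proteasome is slow.

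The left-out 589bm resistant array at 2 h was almost blank: 0.144% of its probes exceeded 2 times its median signal, against 13.4% to 20.3% on the 9 arrays used. The 5 arrays titled as resistant 595sp carry characteristics that disagree with their titles in drug response or time, and only 2 of the 5 are called resistant there. By measurement, each of the 9 arrays was nearest in its whole profile to another array of its own titled culture. That nearness does not check the time given in a title, on which the comparison rests. Results are given by title, and changes in 589bm stand beside the main results. Those changes use no 595sp array, but their spread and p-values come from a model of all 9 arrays. A fit of the 4 589bm arrays on their own, added after seeing the data, is given with the lines. Of 16 plasma cell markers with a named probe, 13 were among the brighter probes kept for tests, and so were 14 of 16 B cell markers. Over the 16 of each list the median percentile was 77.1 for plasma cell and 78.5 for B cell markers. Mzb1, a chaperone of antibody secretion, lay at percentile 99.8 of all probes and Pou2af1, a B lineage co-activator, at percentile 99.2. The defining markers Jchain, Tnfrsf17 and Prdm1 lay at percentiles 47.1, 29.8 and 40.5, in the dimmer part of all probes, and the plasma cell surface marker Sdc1 at percentile 74.9.

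Treated resistant cultures differed from the early arrays by 610 of 11802 genes (5.17% of those tested) at an adjusted p under 0.05, from a limma fit with the line as a block. There were 273 genes higher (2.31%) and 337 lower (2.86%). All 610 had the same sign in both lines. Selection by the pooled change favours this, because that change is a weighted mean of both lines. Of the 610, 44 rose and 24 fell by more than 1 on the log2 scale, and the median over all genes tested was -0.00. Another scaling of the arrays, to equal medians, called 114 genes higher and 70 lower. The groups did not overlap for 769 genes (6.52%), and 327 of these were among the 610. The p-values measure the spread between times of single cultures and the disagreement of the lines in their change, not a spread between replicate cultures. As no untreated array was taken after 0 h, drug and time in culture cannot be told apart. The count fell to 308 without the 589bm 0 h array, to 202 without 595sp 0 h, to 251 without 595sp 2 h and to 354 without 595sp 16 h. It was 10 without the line as a block. With the 595sp arrays placed by their characteristics, 0 genes passed and 514 had an unadjusted p under 0.05.

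The largest rises in the resistant cultures were of genes of the integrated stress response and of amino acid supply. Values are log2 signals, which can be compared between arrays for a gene but not between genes, and early values are given in the order 589bm 0 h, 595sp 0 h and 595sp 2 h. Chac1, an enzyme that degrades glutathione, measured 8.12, 7.32 and 7.47 early and from 9.74 through a median of 10.17 to 10.38 in the 6 treated arrays. The groups did not overlap, and the change was 2.46 (SE 0.16, 5.51-fold, adjusted p = 1.9e-07). Trib3, a pseudokinase that dampens stress signalling, measured 7.76, 7.77 and 7.91 early and from 9.64 through 9.77 to 11.16 late. Its change was 2.41 (SE 0.22, adjusted p = 2.07e-05), and the 2 highest treated arrays were both of 595sp. Nupr1, a small stress-induced nuclear protein, rose by 1.85 (SE 0.22) and Atf5, a transcription factor of the same response, by 1.71 (SE 0.19). Atf4 itself measured 10.18, 10.71 and 10.86 early and 11.09, 12.05 and 12.79 as the lowest, median and highest treated arrays. It rose by 1.58 (SE 0.16, 2.99-fold, adjusted p = 3.02e-05), with no overlap. The death-linked factor Ddit3 rose by 1.30 (SE 0.22, adjusted p = 0.00188) and Atf3, a stress repressor, by 1.25 (SE 0.19).

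Of the 23 tested genes listed as Atf4 targets and integrated stress response, 16 were higher and 0 lower, against 2.31% and 2.86% of all genes, and their median change was 0.72. The list gave 4 higher and 0 lower in 589bm alone, 15 and 0 in 595sp alone, and 10 and 0 under median scaling. Asparagine synthetase, Asns, rose by 1.12 (SE 0.16, adjusted p = 0.000608) and Sesn2, an inhibitor of the growth kinase mTORC1, by 0.96 (SE 0.15). Among 10 amino acid transporters 3 rose and 0 fell. Slc7a3, which imports arginine and lysine, measured 8.08, 8.08 and 8.00 early and 9.33, 10.28 and 10.85 at the lowest, median and highest late arrays, a rise of 2.08 (SE 0.24). That rise rests on 1 of its 2 kept probes, since the other gave 0.12. Slc6a9, a glycine importer, rose by 1.46 (SE 0.19) and Slc1a4, an importer of alanine and serine, by 0.63 (SE 0.15). Of 18 aminoacyl-tRNA synthetases, which charge tRNAs with amino acids, 6 rose and 0 fell, but 3 rose without 595sp 0 h, 3 under median scaling and 1 in 589bm alone. The alanyl enzyme, Aars, rose by 1.21 (SE 0.13) and the threonyl enzyme, Tars, by 1.02 (SE 0.20).

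**Figure D1:**
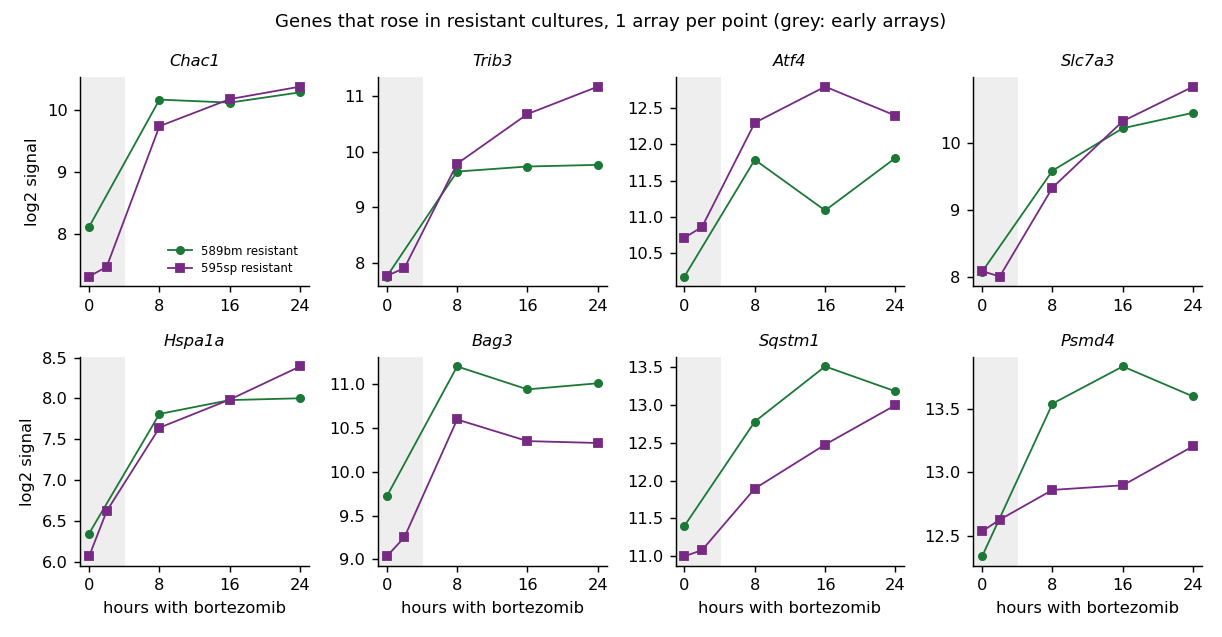
Log2 signal (vertical axes, each with its own range) against hours with bortezomib for 8 genes that rose in the resistant cultures, 1 array per point, with 589bm in green circles and 595sp in purple squares and the early arrays on grey. In each panel every treated array of a line lies above the early arrays of that line, and Trib3 reaches 11.16 in 595sp at 24 h.

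Promoters of the largest rises are shown so that the motifs known for Atf4 and Hsf1 can be seen where they occur among these genes. The window searched, on both strands, ran from 250 bases before to 50 after each start in RefSeq's table for GRCm38.p6. The motifs were TGATGNAA, the composite element of ATF4 and C/EBP factors, GAANNTTC and TTCNNGAA, the head-to-head and tail-to-tail pairs of heat shock units, TGACNNNGC, the antioxidant element, and TGACGTCA, the cAMP element. The 2 heat shock pairs can overlap each other, and the antioxidant and cAMP elements share their first letters. Of the 14 largest rises 10 had a promoter in the table, and the first 6 of these with a match, in order of their change, are printed 5′ to 3′ on the gene's strand, with the matched motif in capitals. Except for Trib3 the 250 bases before the start are given. In Trib3 the match lies 15 to 22 bases after the start, and 30 bases around it are shown.
Chac1 (chr2:119350992-119351241, plus strand): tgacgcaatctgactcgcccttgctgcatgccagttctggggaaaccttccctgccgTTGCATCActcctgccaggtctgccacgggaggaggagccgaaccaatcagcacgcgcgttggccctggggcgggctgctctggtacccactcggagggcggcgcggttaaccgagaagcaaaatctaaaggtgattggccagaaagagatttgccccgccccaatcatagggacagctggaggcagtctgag
Trib3 (chr2:152344028-152344057, minus strand): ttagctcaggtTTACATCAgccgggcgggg
Nupr1 (chr7:126625471-126625720, minus strand): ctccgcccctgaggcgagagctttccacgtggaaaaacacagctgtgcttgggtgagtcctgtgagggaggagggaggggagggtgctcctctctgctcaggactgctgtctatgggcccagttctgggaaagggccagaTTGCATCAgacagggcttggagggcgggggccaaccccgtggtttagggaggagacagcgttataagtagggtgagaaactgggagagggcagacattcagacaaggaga
Atf5 (chr7:44816659-44816908, minus strand): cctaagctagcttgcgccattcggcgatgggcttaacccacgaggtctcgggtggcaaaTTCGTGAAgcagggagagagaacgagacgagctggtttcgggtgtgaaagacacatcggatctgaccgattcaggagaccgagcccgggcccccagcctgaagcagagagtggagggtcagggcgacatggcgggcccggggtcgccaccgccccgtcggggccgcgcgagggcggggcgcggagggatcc
Hspa1a (chr17:34972157-34972406, minus strand): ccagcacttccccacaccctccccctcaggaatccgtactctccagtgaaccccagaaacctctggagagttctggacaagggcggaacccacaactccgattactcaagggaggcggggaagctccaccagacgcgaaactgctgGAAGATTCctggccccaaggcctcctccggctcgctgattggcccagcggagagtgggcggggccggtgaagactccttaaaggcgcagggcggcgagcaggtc
Trafd1 (chr5:121385616-121385865, minus strand): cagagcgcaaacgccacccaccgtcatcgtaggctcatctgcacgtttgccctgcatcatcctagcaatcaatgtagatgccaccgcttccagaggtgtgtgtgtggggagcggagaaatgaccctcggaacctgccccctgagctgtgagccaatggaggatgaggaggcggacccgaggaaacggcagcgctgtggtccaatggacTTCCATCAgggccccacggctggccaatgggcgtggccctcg
The capitals mark the composite element, read on the opposite strand, in Chac1, Trib3, Nupr1 and Trafd1, a tail-to-tail heat shock pair in Atf5 and a head-to-head pair in Hspa1a. Among the largest rises whose promoter is not printed, Atf4 and Sqstm1 held none of the motifs searched. Slc6a9 and Klf6 held only the antioxidant element. A gene counts if any of its starts holds a match. The composite element was present for 20 of 222 rises with a promoter (9.01%), for 7 of 283 falls (2.47%) and for 273 of 9544 genes tested (2.86%). It was present for 4.51% of all genes in the promoter table. It was present for 6 of 14 passing genes of the Atf4 list and for none of 7 passing genes of the heat shock list. The head-to-head heat shock pair showed the reverse, with 1 of 14 and 6 of 7. Over all tested list members with a promoter, passing or not, the composite element was present for 7 of 21 and 0 of 20. The head-to-head pair was present for 1 of 21 and 11 of 20, so the lists differed without regard to passing. This pair stood in 9.91% of rises, 7.07% of falls, 7.38% of genes tested and 9.04% of all genes in the promoter table. The antioxidant element stood in 22.1% of rises, 19.1% of falls, 16.5% of genes tested and 14% of all genes in the promoter table. In the same order the tail-to-tail pair stood in 11.7%, 8.13%, 8.08% and 9.6%. The cAMP element stood in 2.70%, 2.83%, 3.42% and 2.03%, so its share was lower in both rises and falls than in genes tested. These shares describe letters and not binding.

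Chaperone genes rose as well, from low levels for the inducible Hsp70 genes. Hspa1a, the inducible cytosolic Hsp70, measured 6.35, 6.07 and 6.62 early and 7.64, 7.98 and 8.39 at the lowest, median and highest treated arrays. All treated arrays lay above all early ones, and the change was 1.63 (SE 0.17, 3.10-fold, adjusted p = 4.18e-05). Its mean early level was below the lowest mean level of any probe kept, 6.47, so the fold may be understated by an unknown amount. That level is a cutoff of brightness and not a limit of detection. Of its 3 kept probes 1 passed, and the lowest gave 0.12. The near-identical Hspa1b, whose transcripts a probe may not separate from Hspa1a, rose by 0.79 (SE 0.14, adjusted p = 0.0037). Its early mean was also below 6.47, so this change too may be understated. Of its 2 kept probes 1 passed. Bag3, a partner of Hsp70 that steers clients to autophagy, measured 9.72, 9.04 and 9.25 early and 10.33, 10.77 and 11.20 late, and rose by 1.30 (SE 0.12, adjusted p = 2.07e-05). Hsp90aa1, the inducible Hsp90, rose by 1.40 (SE 0.18) and Hsph1, a nucleotide exchange factor of Hsp70, by 1.06 (SE 0.18). Hspb1, a small heat shock protein, rose by 1.25 (SE 0.25, adjusted p = 0.00753) over both lines, with 0.34 in 589bm and 1.83 in 595sp. Dnajb1, the Hsp70 co-chaperone, had a change of 0.36 (SE 0.13, adjusted p = 0.141). In all 9 of 22 heat shock genes were higher and 0 lower, with a median of 0.47. The list gave 2 higher in 589bm alone and 8 under median scaling, with 0 lower in each.

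Proteasome subunit genes lay above 0 in 29 of 29 tested, where 5853 of the 11802 genes did, and 15 rose while 0 fell. Their median change was 0.50, with 0.67 in 589bm and 0.41 in 595sp, and it was 0.54 under median scaling, where 11 rose. The number that rose was 10 in 589bm alone, 6 in 595sp alone and 6 without the 589bm 0 h array. The largest rise was of Psmd14, the deubiquitinase of the lid, at 1.03 (SE 0.19, adjusted p = 0.00419). Psmd2, a scaffold of the regulatory particle, rose by 0.94 (SE 0.22), and Psmc3 and Psmc5, ATPases of its base, by 0.82 (SE 0.14) and 0.82 (SE 0.11). Psmd4, a ubiquitin receptor, measured 12.34, 12.54 and 12.63 early and 12.86, 13.37 and 13.83 late, a rise of 0.76 (SE 0.15, adjusted p = 0.00733), with 1.32 in 589bm and 0.41 in 595sp. The drug's target subunit Psmb5 measured 8.21, 9.11 and 8.86 early and 8.61, 8.99 and 9.71 late. Its groups overlapped and its change of 0.48 (SE 0.16, adjusted p = 0.105) did not pass. The regulator Nfe2l1 rose by 0.65 (SE 0.16, adjusted p = 0.0275). It did not pass in 14 of 24 alternative settings of processing, arrays or labels, where its change ran from 0.019 to 0.79.

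Genes of ubiquitin handling and autophagy rose in part, with 7 of 10 and 14 of 17 above 0. Of 10 tested genes around ubiquitin and the segregase p97, 5 rose and 0 fell, among them Zfand2a, a stress-induced ubiquitin-binding protein, at 1.06 (SE 0.15), and the p97 cofactors Ufd1 and Nploc4 at 0.78 (SE 0.15) and 0.62 (SE 0.15). The number that rose was 1 without 589bm 0 h, 3 without 595sp 2 h, 3 under median scaling, 2 in 589bm alone and 1 in 595sp alone. Sqstm1, the receptor p62 that carries ubiquitinated cargo to autophagosomes, measured 11.40, 11 and 11.08 early and 11.89, 12.89 and 13.51 late. It rose by 1.55 (SE 0.19, 2.92-fold, adjusted p = 0.000168), with no overlap. Gabarapl1, of the LC3 family, rose by 1.08 (SE 0.15) and the receptor Tax1bp1 by 0.95 (SE 0.13). In the autophagy and lysosome list 4 of 17 rose and 0 fell, the fourth being Lamp2, a lysosomal membrane protein, at 0.52 (SE 0.13). Among 22 genes of NRF2 and glutathione 4 rose and 1 fell, but 2 rose and 0 fell without 589bm 0 h, 595sp 0 h, 595sp 2 h or 595sp 16 h, and 0 fell without 589bm 24 h or 595sp 8 h. Ftl1, the ferritin light chain, rose by 1.09 (SE 0.15), Gclm, a subunit of glutathione synthesis, by 0.84 (SE 0.14) and Osgin1, an oxidative stress gene, by 0.73 (SE 0.20). Osgin1 did not pass in 16 of 24 alternative settings. Hmox1, haem oxygenase, had a change of 0.44 (SE 0.16, adjusted p = 0.134).

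The unfolded protein response of the endoplasmic reticulum, which folds secreted antibody, showed little that passed. Among 23 chaperones and degradation factors of this compartment 1 rose and 0 fell, but 21 lay above 0, and the median was 0.20. None rose under median scaling, 2 without 589bm 16 h and 3 without 595sp 8 h. The riser was Herpud1, a membrane adaptor of degradation that is also an Atf4 target, at 0.72 (SE 0.12, adjusted p = 0.00166). The main chaperone Hspa5 had a change of 0.43 (SE 0.17, adjusted p = 0.163) and the plasma cell factor Xbp1 one of 0.46 (SE 0.15, adjusted p = 0.0957).

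**Figure D2:**
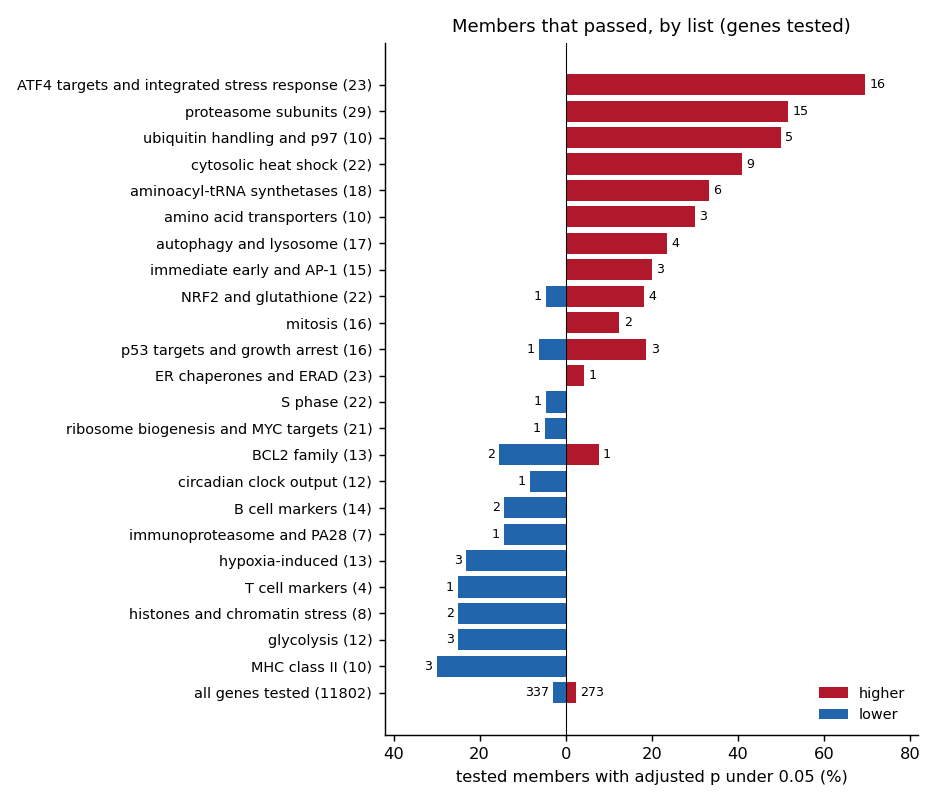
Share of tested members that passed in the resistant cultures (horizontal axis, percent, higher in red to the right and lower in blue to the left), for each list with at least 1 passing member and for all genes tested; the numbers at the bars are genes. The Atf4 list stands highest with 16 of 23, followed by proteasome subunits with 15 of 29.

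Outside these groups the rises included signalling and lymphocyte genes. Glipr1, a secreted CAP-domain protein, measured 8.41, 8.85 and 8.86 early and 9.42, 10.11 and 11.08 late, a rise of 1.65 (SE 0.16, adjusted p = 2.41e-05). Cd69, a lymphocyte activation antigen, rose by 1.51 (SE 0.20), and its treated and early arrays overlapped because the lines differ in level. A second kept probe of Cd69 gave -0.06. Trafd1, a brake on innate signalling, rose by 1.48 (SE 0.14) and Klf6, an early response factor, by 1.45 (SE 0.21). Of 15 immediate early genes 3 rose (0 in 589bm alone) and 0 fell, Klf6 with Ier3 at 0.96 (SE 0.17) and the phosphatase Dusp1 at 0.88 (SE 0.15). Growth arrest genes gave 3 higher and 1 lower of 16 (2 and 0 without 589bm 0 h, 595sp 0 h or 595sp 2 h, and 0 lower without 589bm 16 h, 589bm 24 h or 595sp 16 h), with Gadd45a, a stress sensor, at 1.12 (SE 0.14) and the kinase Plk3 at 1.06 (SE 0.14). The cell cycle inhibitor Cdkn1a had a change of 0.53 (SE 0.15, adjusted p = 0.0513).

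Among 13 genes of the BCL2 family, which sets the threshold for cell death, 1 rose and 2 fell. None rose without 595sp 0 h, 2 h, 16 h or 24 h, 2 rose without 595sp 8 h, 1 fell without 589bm 0 h or 595sp 0 h, and 0 fell without 595sp 2 h. Pmaip1, the killer protein Noxa, rose by 0.58 (SE 0.15, adjusted p = 0.0292). Bcl2l11, the killer Bim, measured 11.11, 10.44 and 11.03 early and 10.09, 10.21 and 10.43 late, and fell by 0.64 (SE 0.15, adjusted p = 0.0167), on 1 of its 4 kept probes. Bmf, a related killer, fell by 0.91 (SE 0.19, adjusted p = 0.00975). The genes of both transgenes were bright. Bcl2l1, which encodes Bcl-XL, measured 14.11, 14.70 and 14.72 early with a change of -0.11 (SE 0.13, adjusted p = 0.755), and Myc had a change of -0.41 (SE 0.12, adjusted p = 0.0708). Whether these probes read the transgene or the mouse's own gene was not tested.

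The largest falls were of histone genes and of genes with no common list. H2ac18, a core histone, measured 10.18, 9.70 and 9.63 early and 7.54, 8.57 and 9.65 late. It fell by 1.49 (SE 0.21, 2.80-fold lower, adjusted p = 0.000515), with -1.82 in 595sp and -0.95 in 589bm (adjusted p = 0.259). The highest treated array lay just above the lowest early one, and 1 of its 3 kept probes gave 0.17. The near-identical H2ac19 fell by 1.32 (SE 0.18) and H2ax, the histone that marks DNA breaks, by 1.32 (SE 0.25). Among 8 genes listed as histones and chromatin stress 2 fell and 0 rose, and 0 fell in 589bm alone. Rsph1, a component of cilia, measured 12.76, 13.30 and 13.37 early and 11.15, 11.81 and 12.31 late, a fall of 1.46 (SE 0.21). Fndc10, a membrane protein, fell by 1.37 (SE 0.15, adjusted p = 7.97e-05), Cnp, an enzyme abundant in myelin, by 1.29 (SE 0.19) and Espn, an actin-bundling protein, by 1.27 (SE 0.17). Tmem64 and Macrod1 each fell by 1.24 (SE 0.18 and SE 0.20), Pld4, an exonuclease of endolysosomes, by 1.18 (SE 0.16), Rflna by 1.17 (SE 0.18) and the unnamed transcript 2310039H08Rik by 1.17 (SE 0.13). Atp4a, known as a gastric proton pump subunit, fell by 1.14 (SE 0.16).

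Sugar metabolism and hypoxia genes fell in part. Of 12 glycolytic genes 3 fell and 0 rose, with a median of -0.20. Pfkl, the liver-type phosphofructokinase, fell by 0.85 (SE 0.11, adjusted p = 0.000343). Ldha, lactate dehydrogenase, measured 14.29, 14.29 and 14.08 early and 13.12, 13.48 and 13.70 late, without overlap, and fell by 0.76 (SE 0.12). Tpi1, triose phosphate isomerase, fell by 0.62 (SE 0.12), and the muscle enolase Eno3, which was not on that list, by 1.16 (SE 0.15). Of 13 hypoxia-induced genes 3 fell and 0 rose, but 0 fell without 589bm 0 h, where 1 rose, 0 fell without 595sp 0 h, and 1 fell under median scaling. Ankrd37 measured 9.40, 8.99 and 7.77 early and 7.47, 7.79 and 7.92 late, so the 595sp array at 2 h already lay among the treated ones. Its fall was 1.02 (SE 0.22, adjusted p = 0.0121) over both lines. Pdk1, a kinase that shuts sugar carbon out of mitochondria, fell by 0.64 (SE 0.13) and Egln1, an oxygen sensor, by 0.58 (SE 0.15). The clock output gene Dbp fell by 0.90 (SE 0.19, adjusted p = 0.0122), the 1 fall among 12 genes of its list, of which 0 fell under median scaling or without either 0 h array.

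Genes of antigen presentation and lymphocyte identity were lower in part. Of 10 MHC class II genes 3 fell and 0 rose, with a median of -0.47. None passed in either line alone, under median scaling, without 589bm 0 h or without 595sp 16 h, and 1 passed without 595sp 0 h or without 595sp 2 h. All 3 encode H2-DM, which loads peptides onto class II molecules, H2-DMa at -0.65 (SE 0.16), H2-DMb2 at -0.62 (SE 0.15) and H2-DMb1 at -0.58 (SE 0.13). The immunoproteasome subunit Psmb10 fell by 0.54 (SE 0.12), alone among 7 genes of its list, of which 0 fell under median scaling or without either 0 h array and 2 without 589bm 16 h, 595sp 2 h, 595sp 8 h or 595sp 24 h. Of these 7 genes 0 lay above 0, and their median was -0.22. Among 14 B cell markers 2 fell and 0 rose, and 1 fell under median scaling, without 595sp 0 h or without 595sp 2 h. Cd72, an inhibitory B cell receptor, fell by 0.90 (SE 0.12), and Vpreb3, a protein of early B cells, by 0.91 (SE 0.20). The mean log2 signal of the 14 lay between 8.49 and 8.73 on early and between 8.06 and 8.39 on treated arrays. Among 4 tested T cell markers 1 fell (2 without 589bm 8 h), Cd3g, a chain of the T cell receptor complex, by 1.14 (SE 0.13, adjusted p = 0.000101). The mean of these 4 lay between 8.87 and 9.24 early and between 8.32 and 8.99 late. By percentile of all probes Cd8b1 lay at 97.3, Cd2 at 88.1, Cd3g at 85.8 and Cd3e at 59.2. The untested Cd3d, Cd4 and Cd8a lay at percentiles 30.5, 48.4 and 14.3. Of 13 plasma cell markers tested 0 passed, with means of 9.26 to 9.50 early and 9.06 to 9.38 late. In bulk RNA, fewer cells of a type and less RNA per cell cannot be told apart, and the part of such cells in any result was not tested. Macrophage, erythroid and stromal lists had 4, 4 and 3 members bright enough to test and 0 passed.

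Few proliferation genes passed over the pooled times. Of 22 S phase genes 3 lay above 0 and the median was -0.24, against -0.00 for all genes. Of these 1 fell over all times, the thymidine kinase Tk1, by 0.80 (SE 0.15, adjusted p = 0.00544), with 2 of its 4 kept probes. At 24 h 7 of the 22 fell, against 264 of all 11802 genes. Of 21 genes of ribosome biogenesis and Myc targets 1 fell, the transferrin receptor Tfrc, by 0.80 (SE 0.17). At 16 h 6 of the 21 fell, against 433 of all 11802 genes. Of 16 mitosis genes 2 rose and 0 fell, but 0 rose under median scaling or without 595sp 0 h, and without 589bm 0 h 0 rose and 1 fell. Of the same genes 1 rose without 595sp 2 h or 595sp 16 h, and 1 fell without 589bm 8 h. For S phase 0 fell under median scaling or without 595sp 2 h, 2 without 589bm 0 h or 595sp 8 h, and 3 without 589bm 8 h. For ribosome biogenesis 0 fell under median scaling, without 595sp 0 h or without 595sp 2 h, and 2 without either 8 h array. Oxidative phosphorylation, cholesterol synthesis, ribosomal protein, interferon, NF-kB, MHC class I, metallothionein and ABC transporter genes had 0 members passing, with between 3 and 22 members tested in each. The efflux pump gene Abcb1b had a change of 0.36 (SE 0.13, adjusted p = 0.133).

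**Figure D3:**
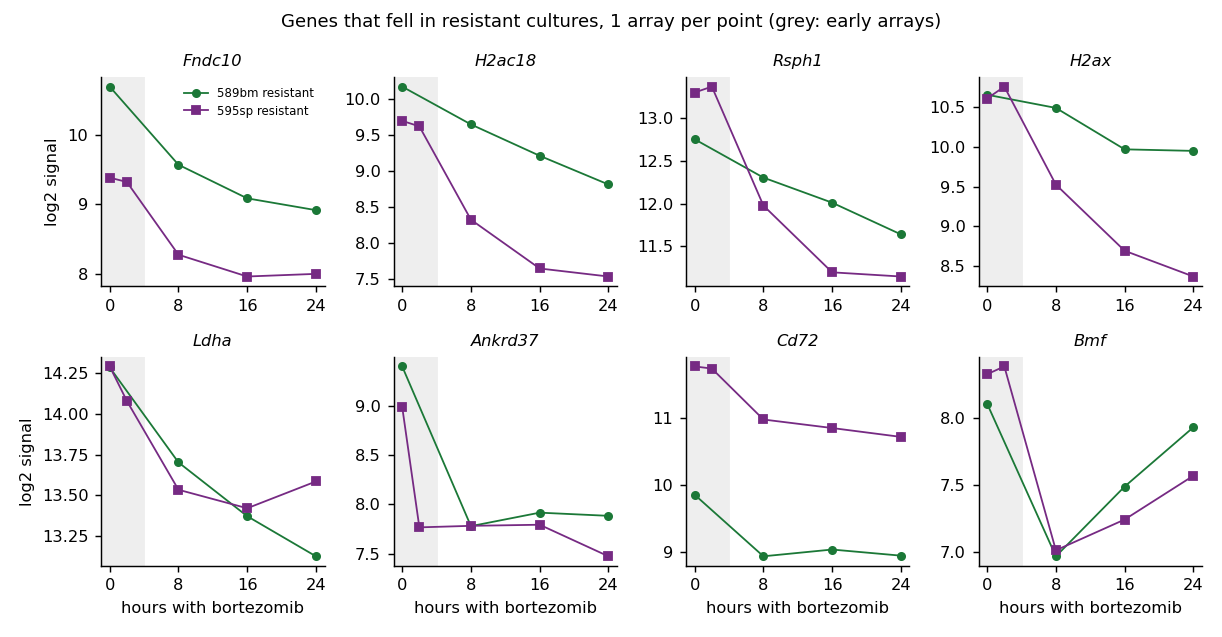
Log2 signal (vertical axes, each with its own range) against hours with bortezomib for 8 genes that fell in the resistant cultures, 1 array per point, drawn as for the rises. Ankrd37 in 595sp stood at 8.99 at 0 h and 7.77 at 2 h, and Bmf was lowest at 8 h in both lines.

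Each time was also compared with the early arrays on its own, to ask whether the pooled response rests on single times. At 8 h 187 genes passed (1.58%), at 16 h 766 (6.49%) and at 24 h 571 (4.84%), and 124 passed at all 3 times in 1 direction, 67 of them higher. The counts rest on few arrays. With 1 array per line and time, the spread behind these p-values is mainly the disagreement of the lines at a time. At 8 h 5 passed without 589bm 8 h, 11 without 595sp 8 h, 50 without 595sp 0 h and 95 without 595sp 2 h, but 568 without 589bm 16 h and 573 without 595sp 16 h. At 16 h 285 passed without 595sp 0 h, 347 without 595sp 2 h and 497 without 595sp 16 h. At 24 h 91 passed without 595sp 24 h, 189 without 589bm 24 h, 209 without 595sp 0 h and 318 without 595sp 2 h, but 942 without 589bm 16 h and 943 without 595sp 16 h. Chac1 changed by 2.27, 2.47 and 2.65 at 8, 16 and 24 h, and Atf4 by 1.59, 1.49 and 1.65. Slc7a3 changed by 1.41, 2.23 and 2.60 and Sqstm1 by 1.08, 1.73 and 1.83. Hsph1 was highest at 8 h with 1.48, then 0.89 and 0.82, and Hsp90aa1 changed by 1.61, 1.5 and 1.08. Among the falls, H2ac18 changed by -1.03, -1.59 and -1.84. Bmf changed by -1.29, -0.92 and -0.53, the last of which did not pass (adjusted p = 0.123), and Dbp by -1.23, -1.06 and -0.41 (adjusted p = 0.191 at 24 h). Selplg, the ligand of P-selectin, was the other large fall at 8 h, at -1.25, with -1.19 and -0.84 later. Differences between the times were not tested.

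The lines were fitted separately within 1 model, since either could carry the pooled result. In 589bm alone 76 genes passed (0.644%), 58 higher and 18 lower, against its single 0 h array, with the spread taken from both lines. With the 4 589bm arrays in a fit of their own, which leaves 2 residual degrees of freedom, 62 passed, 53 higher and 9 lower, and 57 of these were among the 610. In 595sp alone 313 passed (2.65%), 138 higher and 175 lower. There were 33 genes higher and 9 lower that passed in both. Chac1 rose by 2.07 in 589bm (adjusted p = 0.00218) and by 2.70 in 595sp (adjusted p = 1.32e-06). Hspa1a rose by 1.59 and 1.66, Atf4 by 1.38 and 1.70, and Trafd1 by 1.81 and 1.28, each passing in both lines. Among the falls Fndc10 changed by -1.51 and -1.28 and Cd3g by -1.19 and -1.10, again passing in both. A test of the difference between the lines called 0 of 11802 genes (0%), with 657 at an unadjusted p under 0.05 and a smallest adjusted p of 0.761. The smallest unadjusted p values were of Diras2, Blvrb and Vpreb3. Blvrb, biliverdin reductase B, changed by 1.91 in 589bm and 0.09 in 595sp. Vpreb3 changed by -0.13 and -1.39, and Diras2, a small GTPase, by 0.41 and -0.86. Osgin1 changed by 1.42 and 0.29 and Hspb1 by 0.34 and 1.83. Without 595sp 24 h or 589bm 8 h, 7 and 2 genes passed the line difference.

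**Figure D4:**
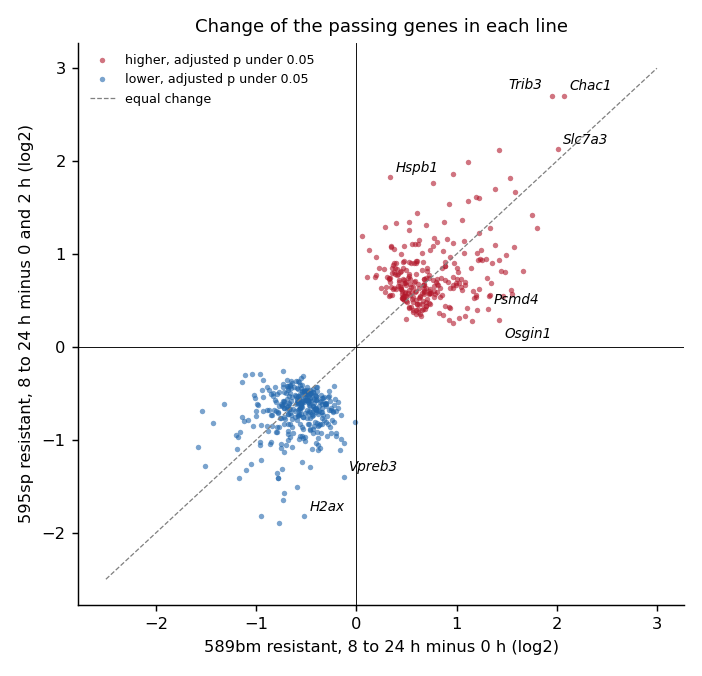
Log2 change of the 610 passing genes in 589bm (horizontal axis) and in 595sp (vertical axis), higher genes in red and lower genes in blue, with the dashed line of equal change. All points lie in the quadrants where both lines have the same sign, which choosing genes by their pooled change favours. Hspb1 (0.34) and Vpreb3 (-0.13) lie nearer 0 in 589bm than in 595sp.

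The resistant response was set beside that of the sensitive cultures by a test of the difference over 19 arrays. In the sensitive cultures 1201 genes were higher (10.2%) and 1101 lower (9.33%). These calls come from the fit of 19 arrays, whereas the resistant calls set beside them come from the fit of 9 arrays. In the fit of 19 arrays 208 genes were higher and 278 lower in the resistant cultures. Of the 273 resistant rises 205 also passed as higher there, which is 75.1% of the resistant and 17.1% of the sensitive rises. Of the 337 falls 260 passed as lower, which is 77.2% of the resistant and 23.6% of the sensitive falls. None passed in the opposite direction. Over the 273 rises the median was 0.67 in resistant and 0.74 in sensitive cultures, and over the 337 falls -0.61 and -0.63, both over genes chosen for their resistant change.

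The difference itself passed for 12 genes (0.102%), 11 with the lower and 1 with the higher response in resistant cultures. Under median scaling, which placed the median difference of all genes at 0.16, 15 passed, 12 higher and 3 lower, and 4 of them were among the 12. The largest differences were of the Hsp70 genes. In the sensitive cultures Hspa1a measured 6.65 to 7.01 on early arrays and 10.61, 11.01 and 13 at the lowest, median and highest treated arrays. It rose by 4.76 there and by 1.63 in the resistant cultures, a difference of -3.13 (SE 0.42, 95% interval -4.00 to -2.26, adjusted p = 0.00123). All treated resistant arrays lay below all treated sensitive ones. The difference of Hspa1b was -2.65 (SE 0.43, adjusted p = 0.00754). Bag3 rose by 2.72 in sensitive cultures, a difference of -1.42 (SE 0.21, adjusted p = 0.00274). Dnajb1 rose by 1.67 there, and its difference of -1.31 did not pass (adjusted p = 0.0559).

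Of the other genes 4 belong to stress and growth arrest. Ddit3 measured 7.56 to 8.45 early and 10.21, 10.88 and 11.43 treated in sensitive cultures, a rise of 2.99, and its difference was -1.69 (SE 0.30, adjusted p = 0.021). Gadd45a rose by 2.40 there, with a difference of -1.27 (SE 0.25, adjusted p = 0.0485). Cebpb, a partner of Atf4, and Ppp1r15a, which restores translation after stress, named here because they passed, differed by -1.37 (SE 0.20) and -1.31 (SE 0.24). Sensitive 595sp measured 7.80 and 7.92 for Cebpb early and 10.19 to 10.36 treated. Resistant 595sp measured 9.61 and 9.51 early and 10.13 to 10.77 treated, so its treated level was not lower. In 589bm early arrays lay at 9.33 to 9.42, and treated ones at 11.27 to 11.37 (sensitive) and 9.82 to 10.15 (resistant). The snoRNA host genes Snhg12 and Snhg5 rose by 2.59 and 2.17 in sensitive cultures and by 0.56 and 0.67 in resistant ones, differences of -2.04 (SE 0.25, adjusted p = 0.000733) and -1.5 (SE 0.26). The transcript 5430416N02Rik differed by -1.52 (SE 0.21) and Rpain, an importer of replication protein A named because it passed, by -1.0 (SE 0.20). Srpk3, a splicing kinase of muscle, fell by 1.08 in sensitive cultures and changed by 0.45 in resistant ones (adjusted p = 0.267), a difference of 1.53 (SE 0.29, adjusted p = 0.0362). Its early 595sp arrays measured 9.80 and 9.67 in the sensitive and 7.95 and 7.81 in the resistant culture. Treated 595sp arrays lay at 8.03 to 8.72 and at 7.57 to 8.77. Hspa1a, Hspa1b, Snhg12 and Srpk3 passed under median scaling too, at -2.90, -2.42, -1.68 and 1.80. Without the 589bm 0 h array 3 of the 12 passed, Hspa1a, Snhg12 and 5430416N02Rik. Without 595sp 0 h or 595sp 2 h, 7 genes passed in each case, 19 passed without 589bm 16 h and 24 without 595sp 24 h.

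For the leading genes of the Atf4 group the differences did not pass, and their intervals were wide. Chac1 rose by 2.60 in sensitive cultures, a difference of -0.14 (95% interval -0.93 to 0.66, adjusted p = 0.927). Atf4 rose by 1.0 there against 1.58 in resistant cultures, a difference of 0.58 (-0.01 to 1.17, adjusted p = 0.458), and Asns by 1.01 against 1.12. Slc7a3 rose by 1.78 there, a difference of 0.30 (-0.48 to 1.07). Trib3 rose by 3.78 there against 2.41, a difference of -1.37 (-2.04 to -0.70, adjusted p = 0.104). In this list 18 genes were higher in sensitive and 16 in resistant cultures, and the 3 that passed the difference, all lower, were Ddit3, Cebpb and Ppp1r15a. Of the proteasome subunits 21 were higher in sensitive and 15 in resistant cultures, by the same unlike fits. None of them passed the difference, with a median difference of -0.14. Hsp90aa1 rose by 1.29 in sensitive cultures, a difference of 0.11 (-0.59 to 0.80). Glipr1 rose by 0.66 there against 1.65, a difference of 0.99 (0.50 to 1.48, adjusted p = 0.111), and Ftl1 changed by 0.13 there against 1.09 (adjusted p of the difference = 0.303).

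**Figure D5:**
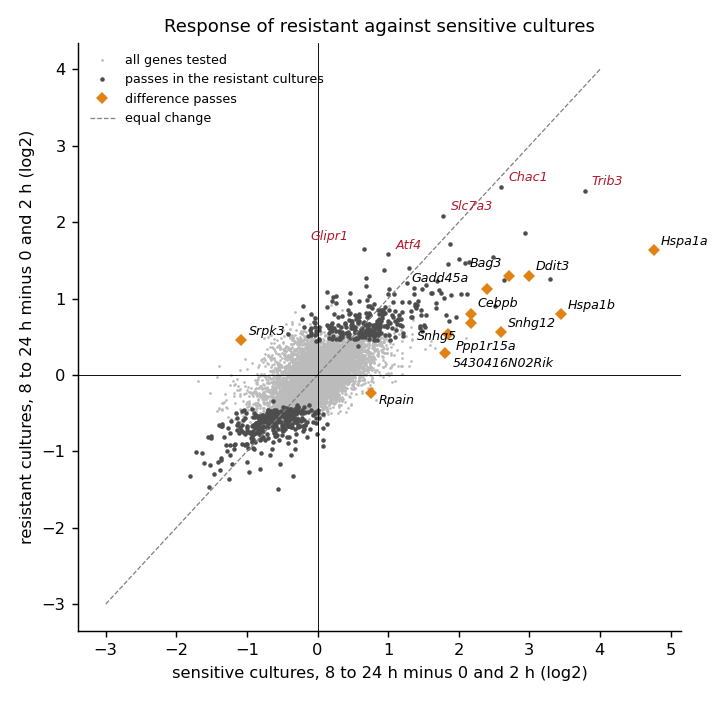
Log2 change in resistant cultures (vertical axis) against that in sensitive cultures (horizontal axis), with all 11802 genes in light grey, the 610 that passed in resistant cultures in dark grey and the 12 whose difference passed as orange diamonds. Hspa1a lies far below the dashed line of equal change, at 4.76 in sensitive and 1.63 in resistant cultures, while Chac1 lies near it at 2.60 and 2.46.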

How the data were processed

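Total RNA was labelled with biotin and hybridised to Illumina mouse bead arrays of 1 colour, per the labels' protocols. The deposited table, per the file headers, holds non-normalized intensity (AVG_Signal) for 45281 probes without detection p-values. The deposited series matrix, an alternative here, holds quantile-normalized intensity of linear scale, whose columns rank probes as the table does, and was taken to log2.

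Background was corrected by normexp (offset 50), values were taken to log2 and quantile-normalized over 19 arrays, and the brighter 50% of probes (22641) kept. The number of arrays limits precision. limma 3.58.1 in R 4.3.3 (lmFit, eBayes with trend) was used with Benjamini-Hochberg adjustment over all kept probes, and was tested on simulated data. Figures were drawn with matplotlib 3.10.9. In fits of the resistant arrays line is the block, because those of a line share 1 culture. In the fit of 19 arrays the block is the culture, that is line by sensitivity. Residual degrees of freedom were 6 (pooled), 4 (by time), 5 (lines) and 13 (against sensitive). The blocked estimate weights 589bm by 38.5% and 595sp by 61.5%.

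Probes took gene names from the platform annotation: 34885 had 1 symbol, 18 several and 10378 none, and 34807 were updated through Entrez numbers. A gene is its kept probe with the highest mean signal. Of 610 passing genes 316 had several kept probes, all of 1 sign in 250. Of 599 list genes in 35 lists 543 had a named probe and 473 were tested. Named genes were the 14 largest rises and falls passing with 1 sign in both lines, a preset set of stress, survival and marker genes, up to 4 passing members per list or the largest where none passed, the 6 largest passing differences each way or the 4 smallest p, and the 3 largest rises and falls per time. Those without a printed value are covered by the counts. P-values measure the spread between times of single cultures. Alternatives changed the scaling, offset, input table, filter, block, moderation, arrays and labels. Members, lists and rules were chosen with earlier results of these data known.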

Additional observations from a re-analysis of the deposited data

Results flagged for a closer look

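Among the 6 treated arrays, 4 of 94 genes had a lowest array set apart from the others by Dixon's criterion, which chance meets for about 1 in 20 groups. Hsp90aa1 measured 11.06 in 595sp at 24 h, with the nearest array at 11.87. Psmc3 measured 11.16 in 589bm at 8 h, with the nearest at 11.75. Myc measured 9.83 in 595sp at 16 h, with the nearest at 10.20. Ankrd37 measured 7.47 in 595sp at 24 h, with the nearest at 7.78.

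The log2 response differed between resistant and sensitive cultures for 12 genes by the limma test of the difference. It was lower in resistant cultures for the chaperone genes Hspa1a (-3.13), Hspa1b (-2.65) and Bag3 (-1.42). It was lower for the stress genes Ddit3 (-1.69), Cebpb (-1.37), Ppp1r15a (-1.31) and Gadd45a (-1.27). It was also lower for Snhg12 (-2.04), 5430416N02Rik (-1.52), Snhg5 (-1.5) and Rpain (-1.0). It was higher for Srpk3 (1.53).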

How the results depend on the processing

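The count of 610 passing genes was 184 under median scaling (114 higher, 70 lower, against 273 and 337), 251 with 0 h arrays only as early, 76 in 589bm alone, 62 with the 589bm arrays in a fit of their own (added after seeing the data), 313 in 595sp alone and 1380 with array quality weights. It was 0 with the near-blank 589bm 2 h array, where 702 genes had an unadjusted p under 0.05. With 595sp arrays placed by their characteristics, an alternative chosen after seeing the data, it was 0. Without the line block it was 10, so the pooled count depends on pairing arrays within a line. Median scaling gave 27 genes at 8 h, 138 at 16 h, 74 at 24 h and 1 for the line difference. The response difference gave 6 genes with 0 h arrays only in all cultures. Leaving out 1 array at a time gave 202 to 670 genes for the pooled comparison, 5 to 573 at 8 h, 285 to 1019 at 16 h, 91 to 943 at 24 h, 0 to 7 for the line difference and 3 to 24 for the response difference. The line difference had no value without 589bm 0 h, since no early 589bm array was then left. With the near-blank array the log2 change turned positive for Bcl2l1 (1.64), Diras2 (0.29), Myc (0.65), Psmb10 (0.65), Tpi1 (0.68), H2-DMb2 (0.47), Pdk1 (0.11), Bcl2l11 (0.45), H2-DMa (0.55), Ldha (0.27), Tfrc (0.68), Tk1 (0.46), Dbp (0.039), Eno3 (0.075), 2310039H08Rik (0.40) and Rsph1 (0.10). In both 589bm settings Diras2 was at 0.41. By characteristics the sign turned for Hspb1 (-0.10), Xbp1 (-0.075), Srpk3 (-0.12), Hmox1 (-0.018), Abcb1b (-0.018), Diras2 (0.33), Vpreb3 (0.034) and H2ax (0.15). Of 81 passing named genes, 81 still passed with offset 16, without the filter and with the 9 arrays normalized alone, 80 with the deposited series matrix, 61 under median scaling and 28 in 589bm alone. Of the 81 passing named genes, 0 passed in every alternative. Egln1 did not pass in 13 of 23 and Lamp2 in 12 of 24. The causes of these shifts were not tested. The 20 arrays, 1 per culture and time, limit the precision.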
